A study of Homo sapiens with 24 samples.

Results

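Heat alters transcription differently in the 2 head and neck squamous carcinoma lines of the series, FaDu and SAS, and that difference is described here gene by gene. The comparison took 12 of the 24 libraries, chosen by their labels: untreated control spheroids and spheroids after hyperthermia (HT) alone, with 3 libraries in each of the 4 groups. FaDu comes from a hypopharyngeal and SAS from a tongue carcinoma. Spheroids of both lines were 4 days old and about 400 µm wide. HT spheroids were kept at 42.5 °C for 60 min and controls at 37 °C, and total RNA was taken 0.5 h after treatment. The other 12 libraries came from irradiated spheroids (RT), with or without HT before irradiation. FaDu received a dose of 7 Gy and SAS a dose of 10 Gy.

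Counts were available for 57500 human Ensembl genes. The 12 unirradiated libraries held between 16794578 and 21862472 counts, with a median of 18195222. By group, the median total was 17763912 in FaDu controls, 17673528 in FaDu HT, 18201500 in SAS controls and 20399019 in SAS HT. FaDu replicate 1 stood apart from the other FaDu replicates. In a chi-square per gene between replicates, it lay at 15.9 and 15.1 from the other controls, which differed from each other by 3.51. After HT the distances were 18.4 and 22.0 for replicate 1 and 5.09 between the others. FaDu HT replicate 1 also had a count in 28404 genes, against 25711 and 26993 in the other FaDu HT libraries.

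Heat shock transcripts are switched on when unfolded proteins release heat shock factor 1 (HSF1), which trimerizes and binds heat shock elements upstream of chaperone genes. Heat also activates stress kinases of the MAP kinase family. These kinases act through serum response factor and AP-1 proteins on immediate early genes, which need no new protein synthesis for their transcription.

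The question was whether HT changed a transcript by a different factor in FaDu than in SAS. For each of 17219 genes, the log2 fold change of HT against control in SAS was subtracted from that in FaDu. This difference is called the interaction, and a positive value means a more positive response in FaDu. Genes with an adjusted p under 0.05 and an interaction beyond 1 in size, which is a 2-fold difference between the responses, are called altered. Levels are given as CPM, the count of a gene scaled to the TMM-adjusted library size, and the value after ± is a standard error from 3 libraries per group.

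The interaction altered 471 of the 17219 genes tested (2.74%) with edgeR. Of these, 215 (1.25%) responded more positively in FaDu and 256 (1.49%) more positively in SAS. Among the altered genes 97 had an interaction above 2 and 100 below -2, and 21 lay above 4 and 28 below -4. Without FaDu replicate 1 in either group, an alternative chosen after the data were seen, 526 genes were altered. In 39 of the altered genes some group had at most 3 counts in all, 25 of them in the SAS controls, so their fitted values depend on a very small number of reads. The other 432 altered genes had more than 3 counts in every group. Under glmTreat, the edgeR test against a 2-fold difference, 86 genes were altered.

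HT itself altered 965 genes in FaDu (5.6%), 847 of them upward, and 995 in SAS (5.78%), 860 of them upward. These effects come from the same libraries as the interaction and are given beside it as description. HT altered 1600 genes in either line, and 389 of them (24.3%) had an altered interaction. Of the 215 genes with a more positive response in FaDu, 125 rose in FaDu and were not altered in SAS, 29 rose in both lines, 19 fell in SAS and were not altered in FaDu, and 2 rose in FaDu and fell in SAS. The remaining 40 passed the threshold in neither line. Of the 256 with a more positive response in SAS, 168 rose in SAS and were not altered in FaDu, 33 rose in both, 12 fell in FaDu only, 1 fell in FaDu and rose in SAS, and 42 passed in neither line. A gene that was not altered in a line may still have moved there by less than the threshold.

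Every heated library followed its line. Over the 215 genes with a more positive response in FaDu, the median log2 response was 1.48, 1.56 and 1.77 in the FaDu HT libraries and -0.17, -0.11 and -0.17 in the SAS HT libraries. Over the 256 genes with a more positive response in SAS, it was -0.11, 0.03 and 0.11 in FaDu HT and 1.89, 1.73 and 1.82 in SAS HT. The median of all genes tested stayed between -0.02 and 0.01 in these libraries. The genes were chosen on these libraries, so the medians show spread between replicates and are no test.

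**Figure D1:**
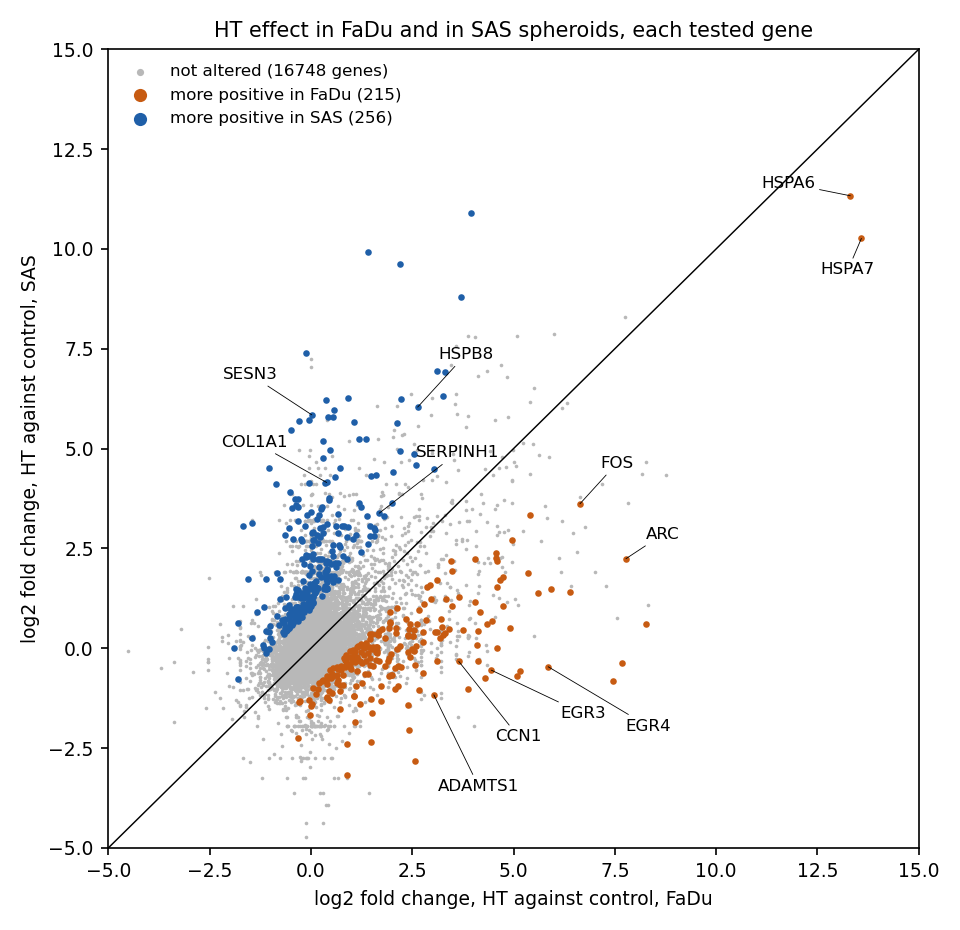
Fitted log2 fold change of HT against control in FaDu (x axis) and in SAS (y axis) for 17219 genes, 3 libraries per group, with the line of equal response. The 215 altered genes below the line (orange) reach far along the FaDu axis, while the 256 above it (blue) rise along the SAS axis near 0 in FaDu; points of genes with at most 3 counts in a group are fitted values and no bounds.

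Immediate early genes of the AP-1 and EGR group formed the clearest block of genes with a more positive response in FaDu. Of 29 listed genes, all of them tested, 18 were altered (62.1%, against 2.74% of all genes). This list and those below were chosen with earlier results of these data known, so their shares are description and no test. Most genes tested were not altered by HT. Among the 1600 that HT altered in either line the share was 24.3%, which is the closer comparison for lists of heat-responsive genes. Each of the 18 responded more positively in FaDu. Their list median was 1.48, against 0.03 over all genes tested. Under glmTreat 11 were altered, and the calls of FOSB, FOSL1, JUND, KLF2, BTG2, MAFF and ZFP36 ended. HT raised 21 of the 29 in FaDu, with a median log2 fold change of 2.43. In SAS it raised 12 and lowered 1, with a median of 0.50.

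EGR4 (ENSG00000135625), a zinc finger transcription factor of the early growth response family, had the highest interaction of any list member. Its level was 1.30, 2.49 and 2.11 CPM in the FaDu controls, 85.4, 128 and 130.1 in FaDu HT, 4.10, 4.69 and 3.77 in the SAS controls and 2.99, 4.14 and 1.95 in SAS HT. Every FaDu HT library lay far above all other libraries, while the SAS groups overlapped. The log2 fold change was 5.85 ± 0.24 in FaDu and -0.47 ± 0.28 in SAS, and the interaction was 6.32 ± 0.37 (adjusted p = 1.91e-07).

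EGR3 (ENSG00000179388), a relative that EGR1 can induce, measured 3.80, 6.52 and 6.196 CPM in the FaDu controls, 74.9, 137 and 151 in FaDu HT, 66.7, 81.1 and 90.5 in the SAS controls and 57.7, 61.6 and 43.3 in SAS HT. The SAS libraries were high before heat and did not rise, while FaDu started under 7 CPM and 2 of its 3 HT libraries passed every SAS library. The interaction was 5.003 ± 0.34 (adjusted p = 7.3e-07), from 4.45 ± 0.27 in FaDu and -0.55 ± 0.22 in SAS. EGR1 (ENSG00000120738), the early growth response factor studied most, measured 93.6, 87.3 and 97.7 CPM in the FaDu controls, 1615, 1591 and 1533 in FaDu HT, 329.9, 383 and 809 in the SAS controls and 530.1, 562 and 521 in SAS HT. All FaDu HT libraries exceeded every SAS library, and SAS control replicate 3 exceeded all SAS HT libraries. Its log2 fold change was 4.09 ± 0.25 in FaDu and 0.09 ± 0.22 in SAS, with an interaction of 4.00 ± 0.33 (adjusted p = 3.84e-06). EGR2 rose in both lines, by 4.60 ± 0.21 and 1.52 ± 0.26, and its interaction was 3.08 ± 0.35 (adjusted p = 6.77e-05).

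ARC (ENSG00000198576), a cytoskeleton-associated protein known from synapses and a standard immediate early gene, also rose in both lines. Its level was 0.156, 0 and 0.124 CPM in the FaDu controls, 19.4, 19.6 and 27.6 in FaDu HT, 4.05, 3.83 and 3.77 in the SAS controls and 18.7, 18.4 and 18.2 in SAS HT. The heated libraries of the lines reached like levels, from 18.2 to 27.6 CPM, and the controls differed, with 6 counts in all 3 FaDu controls together. The interaction was 5.53 ± 0.41 (adjusted p = 1.52e-06), with log2 fold changes of 7.77 ± 0.30 in FaDu and 2.24 ± 0.18 in SAS.

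FOS (ENSG00000170345), the inducible partner of JUN in AP-1, measured 15.7, 16.7 and 18.9 CPM in the FaDu controls, 1763, 1753 and 1598 in FaDu HT, 11.3, 11.9 and 27.8 in the SAS controls and 211, 228 and 185 in SAS HT. Controls of both lines were alike, and every FaDu HT library stood above 1500 CPM while no SAS HT library passed 228. HT raised it by 6.64 ± 0.27 in FaDu and 3.62 ± 0.24 in SAS, an interaction of 3.02 ± 0.32 (adjusted p = 4.43e-05). JUN, its partner in the dimer, measured 66.7, 47.5 and 50.1 CPM in the FaDu controls, 671, 521 and 464 in FaDu HT, 103, 136 and 120.0 in the SAS controls and 306, 278 and 255 in SAS HT. It rose in every heated library of both lines and further in FaDu, with an interaction of 2.11 ± 0.21 (adjusted p = 2.13e-05). JUNB and JUND, its paralogues, had interactions of 1.75 ± 0.18 (adjusted p = 2.86e-05) and 1.28 ± 0.13 (adjusted p = 2.86e-05); JUNB did not pass the test in SAS, at -0.13 ± 0.12.

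Other altered members carried different functions. NR4A1, an orphan nuclear receptor, measured 27.4, 42.2 and 40.7 CPM in the FaDu controls, 791, 762 and 1069 in FaDu HT, 8.37, 9.49 and 8.02 in the SAS controls and 46.1, 41.9 and 47.4 in SAS HT. It rose in both lines, by 4.57 ± 0.16 in FaDu and 2.39 ± 0.17 in SAS, and its interaction was 2.18 ± 0.23 (adjusted p = 3.45e-05). ZFP36, which promotes decay of mRNAs with AU-rich elements, had an interaction of 1.71 ± 0.26 (adjusted p = 0.00102), and BTG2, an antiproliferative gene that is also a p53 target, one of 1.43 ± 0.29 (adjusted p = 0.00766). IER2, a nuclear immediate early protein, rose by 2.06 ± 0.12 in FaDu and stood at -0.49 ± 0.12 in SAS, with an interaction of 2.55 ± 0.17 (adjusted p = 7.3e-07). FOSL1, a FOS relative, had an interaction of 1.48 ± 0.28 (adjusted p = 0.00487). MAFF, a small MAF factor, had 1.37 ± 0.30 (adjusted p = 0.0138), but without FaDu HT replicate 3 its value was 0.98, inside the 2-fold threshold. FOSB had 1.81 ± 0.44 (adjusted p = 0.0234) and was no longer altered without SAS HT replicate 2, SAS HT replicate 3 or SAS control replicate 3, where adjusted p ranged from 0.0504 to 0.151. KLF2, a zinc finger factor at low counts, had 1.94 ± 0.52 (adjusted p = 0.0426). Its call ended without any of 8 libraries (FaDu HT replicate 1, FaDu control replicates 2 and 3, all SAS HT replicates, SAS control replicates 1 and 2), with adjusted p from 0.0665 to 0.147. The KLF2 call also ended with all 8 groups in 1 fit.

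Of the 11 listed genes that were not altered, 4 besides KLF4 were singled out after their values were seen. NR4A3, a paralogue of NR4A1, changed by 3.46 in FaDu and 3.65 in SAS, with an interaction of -0.20 ± 0.99 (adjusted p = 0.973), too imprecise to show whether the lines differed. IER5, a regulator of HSF1, changed by 3.85 and 3.19, with an interaction of 0.66 (adjusted p = 0.00923), under the 2-fold threshold. KLF4 had the lowest value of the list, -0.75 ± 0.24 (adjusted p = 0.0957). NAB2, a corepressor of EGR proteins, had -0.51 (adjusted p = 0.00755), with 0.64 in FaDu and 1.15 in SAS. SRF, which encodes serum response factor, had 0.18 (adjusted p = 0.347). Leaving out 1 library at a time gave between 16 and 19 altered members. The 19, without FaDu HT replicate 1, were 18 with a more positive response in FaDu and 1 in SAS.

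Promoter sequences from RefSeq (build GRCh38.p14, from 250 bases before to 50 after the gene start) were found for 14 of the 18 altered members. The search for the CArG box, the element bound by serum response factor, was chosen after the values were seen. It covered both strands and the box occurs in 1.29% of all 35116 promoters of the table. Among the 14 promoters only that of EGR1 held it, with 2 matches, so it is the one shown. Among the 22 promoters of all tested members 2 held it, so 1 member that was not altered holds it too. The EGR1 promoter lies on the + strand at chr5:138465229-138465528, and capitals mark the CArG boxes.
EGR1: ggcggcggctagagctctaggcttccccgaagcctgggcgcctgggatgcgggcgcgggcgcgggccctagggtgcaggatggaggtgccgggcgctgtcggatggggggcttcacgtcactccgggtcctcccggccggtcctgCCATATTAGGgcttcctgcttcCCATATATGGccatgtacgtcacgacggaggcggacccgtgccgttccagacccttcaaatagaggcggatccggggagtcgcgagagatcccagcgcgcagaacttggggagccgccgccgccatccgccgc
The matches start 105 and 83 bases before the gene start. A match is a description of these letters, and the other 13 promoters have none in this window.

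**Figure D2:**
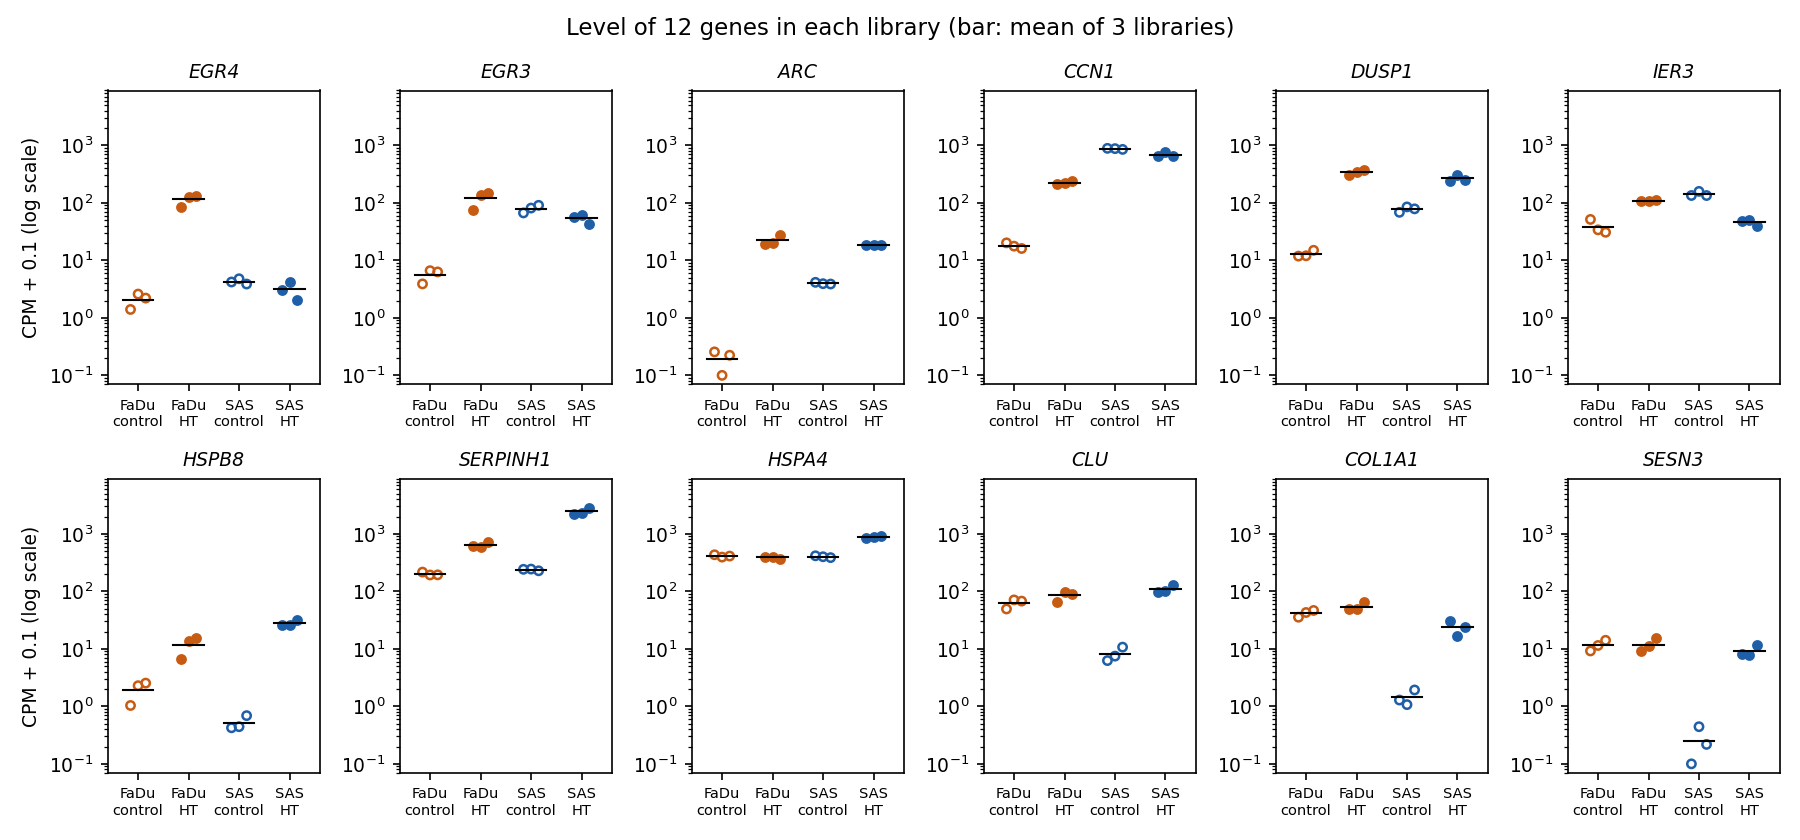
CPM plus 0.1 on a log axis for 12 genes in the 12 unirradiated libraries (open circles: control, filled: HT; orange: FaDu, blue: SAS; bar: mean of 3 libraries). In the upper row FaDu rises with HT, from 1.30 to 130.1 CPM at the extremes for EGR4, while SAS stays level, rises less or falls; in the lower row SAS rises further.

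Feedback genes of the MAP kinase pathway showed the same direction where altered. Of 15 tested, 3 phosphatases were altered (20%, against 2.74% of all genes and 24.3% of genes that HT altered in either line). All 3 responded more positively in FaDu. The list median was 0.54. Under glmTreat the call of DUSP5 ended. DUSP1 (ENSG00000120129), which dephosphorylates p38, JNK and ERK in the nucleus, measured 11.8, 11.9 and 14.9 CPM in the FaDu controls, 303, 350.0 and 377 in FaDu HT, 68.4, 84.9 and 78.6 in the SAS controls and 244, 299 and 253 in SAS HT. FaDu controls lay well under SAS controls and FaDu HT libraries lay above all SAS HT libraries. DUSP1 rose by 4.74 ± 0.13 in FaDu and 1.78 ± 0.11 in SAS, with an interaction of 2.95 ± 0.16 (adjusted p = 1.16e-07). DUSP2, a nuclear phosphatase of the same family, rose by 4.96 ± 0.21 and 2.72 ± 0.16, an interaction of 2.24 ± 0.27 (adjusted p = 0.00014), and SAS stayed the higher line throughout, at 25.2, 32.4 and 36.8 CPM in the controls and 206, 231 and 183 after HT. DUSP5, which is specific for ERK, had 1.32 ± 0.24 (adjusted p = 0.00384). The other 12 genes, among them the Sprouty and SPRED inhibitors, were not altered.

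In the integrated stress response, 2 of 20 tested genes (10%, against 2.74% of all genes) were altered, both with a more positive response in FaDu, and the median was 0.15. ATF3, a stress-induced transcription factor that pairs with JUN, measured 3.43, 3.16 and 2.69 CPM in the FaDu controls, 51.1, 73.8 and 96.7 in FaDu HT, 6.10, 7.26 and 9.08 in the SAS controls and 36.7, 33.9 and 31.5 in SAS HT. HT raised it in every heated library, by 4.59 ± 0.22 in FaDu and 2.188 ± 0.20 in SAS, so the interaction was 2.40 ± 0.30 (adjusted p = 0.000205). PPP1R15A (GADD34), which directs the phosphatase of eIF2α, measured 24.9, 20.7 and 23.4 CPM in the FaDu controls, 265, 267 and 243 in FaDu HT, 95.5, 120.1 and 114 in the SAS controls and 454, 446 and 367 in SAS HT. It rose by 3.49 ± 0.11 and 1.94 ± 0.10 from controls that were lower in FaDu, with an interaction of 1.55 ± 0.14 (adjusted p = 1.22e-05). DDIT3 (CHOP), their companion in this pathway, had an interaction of 0.23 ± 0.16 (adjusted p = 0.521). Without FaDu control replicate 1 the list had 4 altered members. With irradiation 1 member responded more positively in FaDu and 1 in SAS, and the list median was -0.10. Of the 2 genes altered without irradiation, 1 was altered again in the same direction.

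Cytokine and NF-κB feedback genes split by direction. Of 21 tested, 5 were altered (23.8%, against 2.74% of all genes and 24.3% of genes that HT altered in either line). Of the 5, 3 responded more positively in FaDu and 2 in SAS. The list median was 0.34. Under glmTreat none of the 5 calls held. IL6, an inflammatory cytokine, measured 1.56, 1.02 and 1.03 CPM in the FaDu controls, 25.0, 25.9 and 34.6 in FaDu HT, 3.13, 4.40 and 2.12 in the SAS controls and 17.8, 16.9 and 12.01 in SAS HT. It rose in all heated libraries and further in FaDu, with an interaction of 2.31 ± 0.36 (adjusted p = 0.00135). CCL20, a chemokine, had 1.82 ± 0.40 (adjusted p = 0.0137), and its call ended without SAS control replicate 2 (adjusted p = 0.0576). IL1A held level in FaDu and fell in SAS, at 78.6, 95.1 and 73.8 CPM in the controls and 35.7, 32.6 and 22.2 after HT, an interaction of 1.45 ± 0.20 (adjusted p = 0.000371). NFKBIZ, an atypical nuclear IκB, rose in both lines and further in SAS, by 3.06 ± 0.21 against 1.45 ± 0.18, an interaction of -1.62 ± 0.27 (adjusted p = 0.00208). CXCL1, a neutrophil chemokine, had -1.31 ± 0.35 (adjusted p = 0.042). It was not altered without any of 8 libraries (FaDu HT replicate 3, FaDu control replicates 2 and 3, SAS HT replicates 1 and 2, all SAS control replicates), where adjusted p ranged from 0.0544 to 0.108.

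CCN1 (ENSG00000142871) is a matricellular protein and target of YAP/TEAD. It was the only altered gene of 15 tested targets of that pathway (6.67%, against 2.74% of all genes). Its level was 20.1, 17.6 and 15.99 CPM in the FaDu controls, 212, 221 and 238 in FaDu HT, 887, 877 and 851 in the SAS controls and 649, 769.8 and 661 in SAS HT. The groups of the 2 lines did not overlap, and SAS stood above FaDu before and after heat while only FaDu rose. The fold change was 3.65 ± 0.10 in FaDu and -0.33 ± 0.08 in SAS, and the interaction was 3.98 ± 0.12 (adjusted p = 9.41e-11). The list median of 0.12 was close to that of all genes tested, and LATS2, a kinase and target of the pathway, had the lowest value, -0.32 ± 0.13 (adjusted p = 0.212).

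Altered heat shock genes mostly responded more positively in SAS. Across the 6 heat shock lists, 68 of 73 genes were tested and 10 were altered (14.7%). The share was 2.74% over all genes and 24.3% over genes that HT altered in either line. The median was -0.19. Of the 10, 2 responded more positively in FaDu and 8 in SAS, as did 1.25% and 1.49% of all genes. The 2 are HSPA6 and its near-identical copy HSPA7. Under glmTreat CRYAB, HSPB8 and SERPINH1 were still altered, and the calls of HSPA4, HSPA4L, HSPA6, HSPA7, HSPH1, DNAJB4 and BAG3 ended. HT raised 20 of the 68 in FaDu and 26 in SAS and lowered none in either line by the same threshold.

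Among 8 inducible HSP70 and HSP110 genes, 4 were altered (50%, against 2.74% of all genes), and the list median was 0.31. HSPA6 (ENSG00000173110), a strictly heat-inducible HSP70, measured 0.520, 0.509 and 0.289 CPM in the FaDu controls, 3927, 4258 and 5092 in FaDu HT, 0.864, 0.343 and 1.06 in the SAS controls and 1548, 1944 and 2391 in SAS HT. Controls were near 0 in both lines, and each FaDu HT library exceeded each SAS HT library. The fold change was 13.31 ± 0.27 in FaDu and 11.33 ± 0.26 in SAS. Its interaction of 1.98 ± 0.53 (adjusted p = 0.0425) held with 4 of the 12 libraries left out in turn. It ended without FaDu HT replicate 2 or 3, any FaDu control, SAS HT replicate 2, or SAS control replicate 1 or 3, with adjusted p from 0.0522 to 0.17. HSPA7, a pseudogene nearly identical to HSPA6, measured 0.0520, 0.153 and 0.0826 CPM in the FaDu controls, 1199, 1231 and 1316 in FaDu HT, 0.270, 0 and 0.118 in the SAS controls and 164, 172 and 175 in SAS HT. Reads of the pair cannot be assigned with certainty, so its interaction of 3.32 ± 0.78 (adjusted p = 0.02) is no separate evidence. That call ended without FaDu control replicate 3, SAS control replicate 1 or SAS control replicate 3 (adjusted p from 0.052 to 0.491), which left 2 altered genes in the list.

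The classical HSP70 genes rose to a like extent in both lines. HSPA1A measured 114, 79.0 and 108 CPM in the FaDu controls, 2479, 2829 and 3091 in FaDu HT, 186, 168 and 152 in the SAS controls and 3554, 3910.0 and 4271 in SAS HT. The rise of 4.80 ± 0.14 in FaDu and 4.54 ± 0.14 in SAS gave an interaction of 0.27 ± 0.17 (adjusted p = 0.492). HSPA1B, nearly identical in sequence, had 0.35 ± 0.17 (adjusted p = 0.329), and HSPA1L, their neighbour in the MHC region, had 0.34 ± 0.30 (adjusted p = 0.657). DNAJB1, the HSP40 that delivers clients to HSP70, measured 143, 123 and 136 CPM in the FaDu controls, 3564, 4178 and 4746 in FaDu HT, 228, 189 and 216 in the SAS controls and 3639, 3819 and 4186 in SAS HT. Its interaction of 0.76 ± 0.14 (adjusted p = 0.00496) passed the p threshold but stayed under a 2-fold difference. The rise was 4.96 ± 0.12 in FaDu and 4.20 ± 0.11 in SAS.

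Cochaperones and HSP110 proteins exchange nucleotides on HSP70 or adapt it to clients. They made up most of the 8 altered heat shock genes with a more positive response in SAS. HSPH1 (HSP110) measured 244, 174 and 221 CPM in the FaDu controls, 515, 510.0 and 864 in FaDu HT, 527, 552 and 427 in the SAS controls and 3438, 3336 and 3832 in SAS HT. Each SAS HT library held at least 3336 CPM and no FaDu library passed 864, and the interaction was -1.25 ± 0.25 (adjusted p = 0.00706), from 1.57 ± 0.18 in FaDu and 2.82 ± 0.19 in SAS. HSPA4L, a paralogue, measured 31.0, 27.9 and 32.8 CPM in the FaDu controls, 24.6, 37.8 and 63.3 in FaDu HT, 27.9, 27.2 and 24.5 in the SAS controls and 115, 118 and 122 in SAS HT. It rose in SAS only, by 2.16 ± 0.22, with 0.46 ± 0.22 in FaDu, where the HT libraries spread from 24.6 to 63.3, and the interaction was -1.702 ± 0.31 (adjusted p = 0.00382). HSPA4 (ENSG00000170606), a constitutive HSP110, measured 433, 394 and 411 CPM in the FaDu controls, 398, 398 and 370.3 in FaDu HT, 416, 399.9 and 386 in the SAS controls and 837, 874 and 909 in SAS HT. The 9 other libraries lay between 370.3 and 433 CPM, and only SAS HT stood apart, near 2-fold higher. The interaction was -1.21 ± 0.09 (adjusted p = 8.27e-07).

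BAG3, which links HSP70 to small heat shock proteins and to selective autophagy, measured 144, 128 and 131 CPM in the FaDu controls, 278, 372 and 550.0 in FaDu HT, 204, 183 and 167 in the SAS controls and 1293, 1460.0 and 1563 in SAS HT. It rose in both lines, by 1.57 ± 0.17 in FaDu and 2.96 ± 0.18 in SAS, with an interaction of -1.39 ± 0.24 (adjusted p = 0.00291). DNAJB4, an HSP40, reached like levels after HT in both lines from controls that were lower in SAS, with an interaction of -1.47 ± 0.26 (adjusted p = 0.00296). Another member of that list, DNAJA4, had -0.81 ± 0.39 (adjusted p = 0.297) and was not altered.

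Small heat shock proteins, which hold unfolded proteins without ATP, had a median of -1.91 over the 6 of 10 that could be tested. Of the 6, 2 were altered (33.3%, against 2.74% of all genes). The values are widely spread, and with irradiation the median of the same number of genes was -0.68. The median of -1.91 lies between HSPB9 and HSPB1, which were not altered and were picked after their values were seen. HSPB9 had -2.90 ± 0.85 (adjusted p = 0.0622). HSPB1 (Hsp27) rose by 1.54 ± 0.10 in FaDu and 2.45 ± 0.11 in SAS. Its interaction was -0.92 ± 0.14 (adjusted p = 0.00137), inside the 2-fold threshold. HSPB6 (-0.14) and IFT25 (0.05) were not altered either. HSPB8 (ENSG00000152137), the partner of BAG3, measured 0.936, 2.189 and 2.44 CPM in the FaDu controls, 6.54, 13.4 and 15.1 in FaDu HT, 0.324, 0.343 and 0.590 in the SAS controls and 25.7, 25.7 and 31.9 in SAS HT. SAS was lower in the controls and higher after HT in every library, and FaDu replicate 1 was the lowest FaDu library in both groups. The rise was 2.63 ± 0.31 in FaDu and 6.04 ± 0.40 in SAS, an interaction of -3.40 ± 0.57 (adjusted p = 0.00201). CRYAB (αB-crystallin) had no count in the SAS controls and 4.17, 5.97 and 5.63 CPM in SAS HT, with 1.66, 2.54 and 2.31 CPM in the controls and 9.40, 9.99 and 10.7 after HT in FaDu. With 3 counts over the group as floor for the SAS controls, SAS rose at least 93.2-fold, which exceeds the fold of FaDu at least 20.3-fold. The interaction passed the test with an adjusted p of 0.000116.

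SERPINH1 (ENSG00000149257), the collagen chaperone HSP47 of the endoplasmic reticulum and a target of HSF1, measured 216, 193 and 194 CPM in the FaDu controls, 620.5, 583 and 731 in FaDu HT, 242, 244 and 228 in the SAS controls and 2231, 2344 and 2854 in SAS HT. Controls were alike in both lines, and SAS HT libraries held at least 2231 CPM while FaDu HT libraries stayed at or under 731. It rose by 1.68 ± 0.10 in FaDu and 3.38 ± 0.11 in SAS, with an interaction of -1.697 ± 0.14 (adjusted p = 3.74e-06). The heat shock factors were not altered: HSF1 had 0.07 ± 0.11 (adjusted p = 0.85) and the lowest value was that of HSF2BP, -0.50 ± 0.43 (adjusted p = 0.64). Of 5 tested, edgeR altered none, 0 had an unadjusted p under 0.05 and DESeq2 altered 0.

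The heat shock element was searched as GAANNTTC and TTCNNGAA, which are both palindromic, so each covers both strands. It occurred in 13.5% of the 35116 promoters, in 10.2% of 12089 promoters of tested genes and in 29.3% of 58 promoters of tested heat shock genes. Of the 8 altered heat shock genes with a promoter in the table, 3 held it. The other 5 (HSPA4L, HSPH1, HSPA4, DNAJB4 and BAG3) held none. The 3 with a match are shown. All lie on the + strand, HSPA6 at chr1:161524290-161524589, HSPB8 at chr12:119178681-119178980 and SERPINH1 at chr11:75562003-75562302, and capitals mark the matches.
HSPA6: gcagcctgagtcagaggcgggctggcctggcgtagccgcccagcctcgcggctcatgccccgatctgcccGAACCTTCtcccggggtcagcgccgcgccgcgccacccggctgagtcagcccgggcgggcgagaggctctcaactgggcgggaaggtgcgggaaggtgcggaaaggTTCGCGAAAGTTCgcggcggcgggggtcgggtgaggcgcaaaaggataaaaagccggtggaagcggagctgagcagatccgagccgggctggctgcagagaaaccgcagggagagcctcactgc
HSPB8: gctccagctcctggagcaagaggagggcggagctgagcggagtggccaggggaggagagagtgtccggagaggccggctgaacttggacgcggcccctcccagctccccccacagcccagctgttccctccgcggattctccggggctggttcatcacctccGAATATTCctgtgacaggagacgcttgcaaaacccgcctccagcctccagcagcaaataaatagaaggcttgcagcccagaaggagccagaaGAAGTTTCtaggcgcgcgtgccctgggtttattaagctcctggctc
SERPINH1: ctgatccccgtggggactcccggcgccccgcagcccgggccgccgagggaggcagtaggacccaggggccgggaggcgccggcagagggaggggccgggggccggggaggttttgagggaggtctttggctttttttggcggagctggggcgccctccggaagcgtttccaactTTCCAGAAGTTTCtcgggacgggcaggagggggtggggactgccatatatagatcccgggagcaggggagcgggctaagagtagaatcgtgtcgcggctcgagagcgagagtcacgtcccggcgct
HSPA6 holds 3 matches, 2 of which overlap. HSPB8 holds 2 separate matches, one of them after the gene start, and SERPINH1 holds 2 that overlap. HSPA6 responded more positively in FaDu, and HSPB8 and SERPINH1 in SAS. Over all genes, the element was present in 12.8% of promoters of genes with a more positive response in FaDu and 11.7% of those with a more positive response in SAS.

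**Figure D3:**
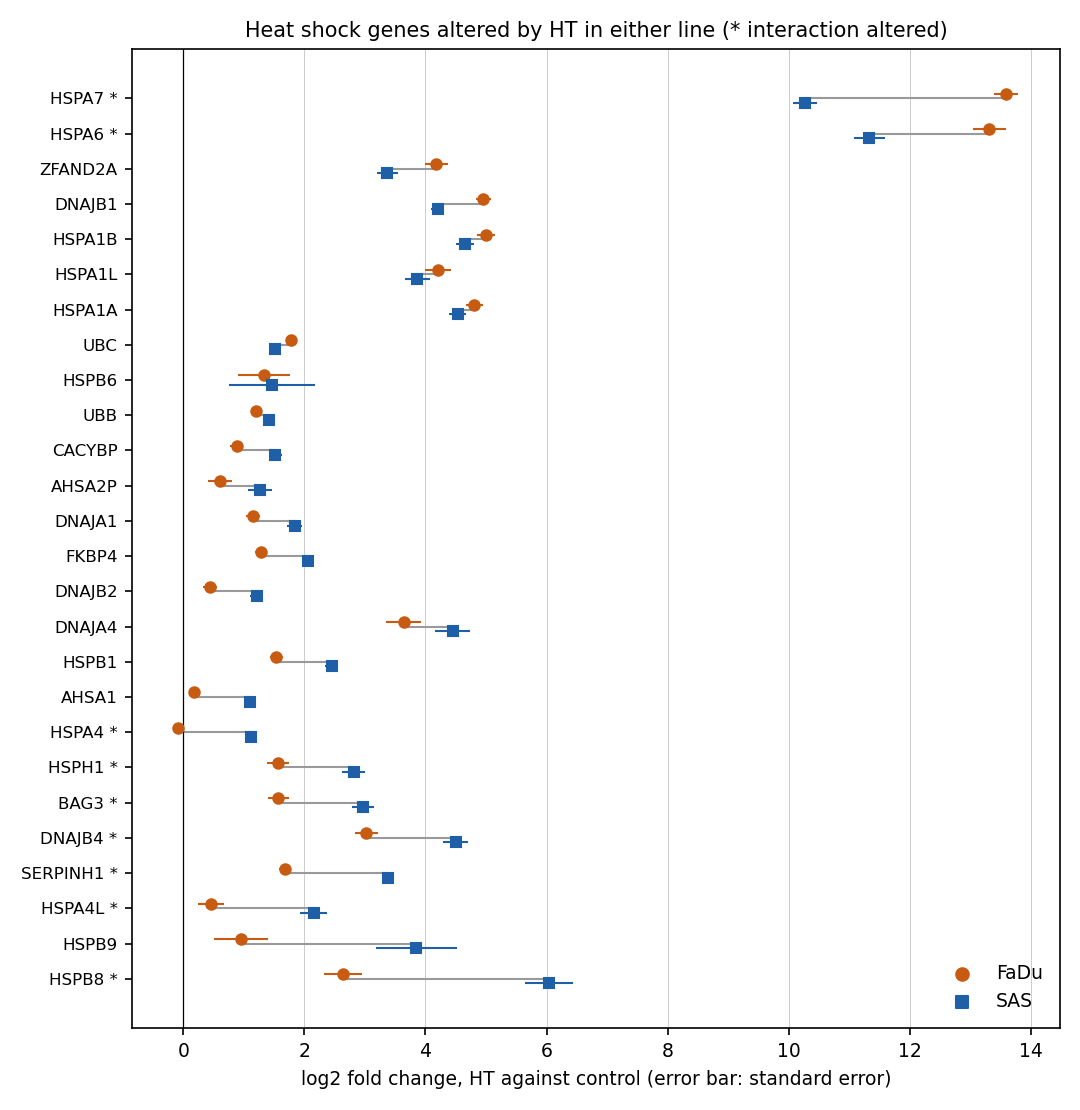
Log2 fold change of HT against control (x axis, bars: standard error, 3 libraries per group) in FaDu (circles) and SAS (squares) for 26 members of the heat shock lists altered by HT in either line, ordered by the interaction, with altered interactions starred. HSPA7 and HSPA6 lie further right in FaDu and HSPB8 to HSPA4 further right in SAS, while HSPA1A, HSPA1B and HSPA1L nearly coincide; CRYAB is left out because its SAS controls had no count.

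Outside the lists, genes that SAS switched on from near 0 had the lowest interactions. SESN3 (ENSG00000149212), a sestrin that restrains mTORC1, measured 9.10, 11.3 and 14.0 CPM in the FaDu controls, 8.93, 10.9 and 15.1 in FaDu HT, 0, 0.343 and 0.118 in the SAS controls and 8.06, 7.75 and 11.4 in SAS HT. HT brought SAS up to the level that FaDu held with and without heat, and the interaction was -5.83 ± 0.55 (adjusted p = 1.57e-05). TNFSF14 (LIGHT), a cytokine of the tumour necrosis factor family, measured 1.09, 0.713 and 0.95 CPM in the FaDu controls, 1.17, 1.42 and 1.51 in FaDu HT, 0.216, 0.229 and 0.354 in the SAS controls and 18.8, 16.8 and 15.2 in SAS HT. SAS HT libraries exceeded all others more than 10-fold and FaDu did not pass the test, at 0.57 ± 0.24, with an interaction of -5.39 ± 0.37 (adjusted p = 7.3e-07).

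CLU (ENSG00000120885), the secreted chaperone clusterin, measured 49.3, 70.9 and 67.6 CPM in the FaDu controls, 66.0, 98.3 and 89.8 in FaDu HT, 6.16, 7.38 and 10.6 in the SAS controls and 96.1, 100.3 and 129.6 in SAS HT. COL1A1 (ENSG00000108821), a chain of type I collagen whose folding needs SERPINH1, measured 35.4, 42.8 and 46.5 CPM in the FaDu controls, 49.6, 48.5 and 65.0 in FaDu HT, 1.19, 0.972 and 1.83 in the SAS controls and 30.6, 16.4 and 23.9 in SAS HT. In both, heated SAS approached or passed the level that FaDu held in all libraries. Interactions were -3.32 ± 0.27 (adjusted p = 4e-06) for CLU and -3.76 ± 0.34 (adjusted p = 1.02e-05) for COL1A1. COL2A1, the chain of type II collagen, rose in both lines, with -3.59 ± 0.75 (adjusted p = 0.00978). PGF, a growth factor of the VEGF family, had -3.50 ± 0.68 (adjusted p = 0.0062); the FaDu controls held 13, 3.56 and 3.84 CPM.

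CACFD1, a membrane protein related to the Drosophila protein flower, measured 8.27, 10.9 and 8.72 CPM in the FaDu controls, 9.98, 11.8 and 10.2 in FaDu HT, 3.19, 4.69 and 3.66 in the SAS controls and 35.0, 36.9 and 44.4 in SAS HT. The SAS HT libraries lay above all others and the interaction was -3.13 ± 0.22 (adjusted p = 7.3e-07). PNLDC1, an exonuclease that trims piRNAs, had no count in the SAS controls and 13.9, 9.74 and 14.7 CPM in SAS HT, with 0.104, 0.0509 and 0.289 CPM in the controls and 1.58, 2.10 and 3.88 after HT in FaDu. Against the floor of 3 counts SAS rose at least 225-fold, at least 14.0-fold more than FaDu. Its adjusted p was 0.0256, and the call ended without FaDu control replicate 3, SAS control replicate 1 or SAS control replicate 2, where adjusted p ranged from 0.0512 to 0.174.

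Of 27 tested splicing kinases, SR proteins and hnRNPs, CLK1 and CLK4 were altered, both with a more positive response in SAS, while the median was -0.01. These 2 are 7.41%, against 2.74% of all genes, and under glmTreat the call of CLK1 ended. These kinases phosphorylate SR proteins, and CLK1 is known to respond to heat. CLK1 measured 26.7, 20.5 and 28.3 CPM in the FaDu controls, 44.1, 38.4 and 81.3 in FaDu HT, 36.2, 42.1 and 43.7 in the SAS controls and 262, 299 and 311 in SAS HT. CLK4 measured 11.1, 11.9 and 14.4 CPM in the FaDu controls, 11.3, 11.8 and 13.4 in FaDu HT, 17.2, 22.5 and 18.4 in the SAS controls and 52.9, 65.2 and 60.0 in SAS HT. SAS HT libraries lay far above all others for both genes. CLK1 rose by 1.12 ± 0.21 in FaDu and 2.84 ± 0.21 in SAS, with an interaction of -1.72 ± 0.30 (adjusted p = 0.0026). CLK4 rose in SAS only, by 1.62 ± 0.12, with an interaction of -1.65 ± 0.18 (adjusted p = 5.29e-05). Of the SR proteins, SRSF2 had 0.72 ± 0.11 (adjusted p = 0.00091), inside the 2-fold threshold.

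Of 17 tested genes of oxidative stress and metal response, 3 were altered (17.6%). The share was 2.74% over all genes and 24.3% over genes that HT altered in either line. All 3 altered genes of the list responded more positively in SAS, and the list median was 0.01. Under glmTreat SLC30A1 alone was altered. HMOX1, which degrades heme, rose in SAS by 2.22 ± 0.29 to 4.23, 4.45 and 4.60 CPM and stayed far higher in FaDu, where controls had 85.6, 60.6 and 65.3 CPM. Its interaction was -2.17 ± 0.33 (adjusted p = 0.001). SLC30A1, a zinc exporter, measured 52.1, 53.2 and 54.1 CPM in the FaDu controls, 75.2, 89.9 and 96.2 in FaDu HT, 13.7, 16.3 and 17.6 in the SAS controls and 71.0, 89.7 and 112 in SAS HT. Heated SAS reached the level of heated FaDu, with an interaction of -1.81 ± 0.20 (adjusted p = 5.92e-05). OSGIN1, an NRF2 target, had -1.39 ± 0.30 (adjusted p = 0.013).

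HT effects of opposite sign, each with adjusted p under 0.05 in its own line, were found for 43 of the altered genes, 16 up in FaDu and 27 up in SAS. In 3 of them both effects passed the 2-fold threshold. The altered genes were picked on the difference between the effects, which favours opposite signs, so the 43 are description. IER3 (ENSG00000137331), an immediate early gene that modulates apoptosis, measured 51.4, 33.9 and 30.7 CPM in the FaDu controls, 108, 108 and 110.1 in FaDu HT, 134, 158 and 134 in the SAS controls and 48.8, 50.2 and 40.2 in SAS HT. FaDu rose and SAS fell in every heated library, by 1.50 ± 0.15 and -1.61 ± 0.15, so that the order of the lines turned over. The interaction was 3.11 ± 0.21 (adjusted p = 7.3e-07). ADAMTS1, a secreted metalloproteinase, rose in FaDu from under 1 to 5.31, 4.21 and 3.88 CPM and fell in SAS from 62.3, 64.2 and 114 to 30.3, 39.8 and 36.6 CPM. Its interaction was 4.20 ± 0.45 (adjusted p = 4.31e-05).

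SIK1B, a copy of the salt-inducible kinase gene SIK1 that reads cannot tell apart with certainty, rose in FaDu by 1.73 ± 0.12 and stood at -0.94 ± 0.14 in SAS, an interaction of 2.67 ± 0.19 (adjusted p = 7.3e-07). FUT4, a fucosyltransferase, and DIO2, a deiodinase that activates thyroid hormone, had interactions of 1.69 and 1.47. In both, every FaDu library was lower than every SAS library, before and after heat. KLF5, a transcription factor of proliferating epithelium, measured 292, 316 and 333 CPM in the FaDu controls, 188, 203 and 182 in FaDu HT, 136, 119 and 173 in the SAS controls and 216, 234 and 241 in SAS HT. It was lower in each heated FaDu library and higher in each heated SAS library than in that line's controls, by -0.71 ± 0.11 and 0.69 ± 0.11, with an interaction of -1.41 ± 0.15 (adjusted p = 4.33e-05). PARD6G, a cell polarity protein, measured 3.02, 4.43 and 3.76 CPM in the FaDu controls, 1.58, 2.26 and 2.42 in FaDu HT, 13.7, 11.2 and 14.6 in the SAS controls and 57.4, 37.4 and 50.05 in SAS HT. Its interaction was -2.71 ± 0.29 (adjusted p = 4.05e-05). CCDC39, a protein of motile cilia, and PAG1, a membrane adaptor of SRC family kinases, had the same direction, with -2.189 ± 0.36 (adjusted p = 0.00176) and -1.65 ± 0.35 (adjusted p = 0.0109).

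A few altered genes were chiefly ones that fell in one line. ID1, an inhibitor of basic helix-loop-helix factors and a BMP target, measured 198, 166 and 174 CPM in the FaDu controls, 59.1, 44.8 and 39.0 in FaDu HT, 90.4, 87.0 and 99.8 in the SAS controls and 92.8, 90.5 and 96.6 in SAS HT. FaDu fell below SAS and SAS did not move, with -1.91 ± 0.12 in FaDu and 0.01 ± 0.12 in SAS, an interaction of -1.93 ± 0.17 (adjusted p = 6.21e-06). It was the only altered gene of 16 tested BMP and TGF-β targets (6.25%, against 2.74% of all genes), whose median was -0.16. There were 3 without SAS HT replicate 2 or SAS control replicate 3, and 2 without FaDu HT replicate 3, SAS HT replicate 1 or FaDu control replicate 1. In the last case 1 of the 2 responded more positively in FaDu. IFIT2, an interferon-stimulated RNA-binding protein, fell in SAS by 1.68 on the log2 scale and stood at -0.01 ± 0.15 in FaDu, with an interaction of 1.66 ± 0.23 (adjusted p = 0.000404). IFI27, an interferon-stimulated mitochondrial protein, stood above 1600 CPM in FaDu and had 2 counts in the SAS controls. Its SAS ratio was 12.9 (95% exact counting interval from 3.25 to 112), which covers counting error only. These were the altered genes among 25 interferon-stimulated genes tested (8%, against 2.74% of all genes), with a median of 0.12. Under glmTreat both calls ended.

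Other lists held 1 altered member each, close to what the 2.74% over all genes gives for their size. Under glmTreat the calls of OVOL1 and BTG2 ended. OVOL1, a transcription factor of epithelial differentiation, measured 9.88, 10.8 and 9.87 CPM in the FaDu controls, 76.2, 73.0 and 72.8 in FaDu HT, 12.7, 12.1 and 9.56 in the SAS controls and 33.0, 33.4 and 33.6 in SAS HT. It rose in all heated libraries, by 2.86 ± 0.10 in FaDu and 1.54 ± 0.10 in SAS, an interaction of 1.32 ± 0.13 (adjusted p = 2.81e-05). It was the only altered gene of 20 tested keratin and differentiation genes, with a median of 0.05 (3 without FaDu control replicate 1, and 2 without FaDu HT replicate 2, SAS HT replicate 1, SAS HT replicate 3 or SAS control replicate 3). RIPK4, a kinase of keratinocyte differentiation, fell in FaDu by 1.92 and had an interaction of -0.94 ± 0.20 (adjusted p = 0.00997), just inside the 2-fold threshold. ANKRD37, a HIF target, had 2.68 ± 0.38 (adjusted p = 0.00059), the only altered gene of 15 tested hypoxia targets, with a median of 0.14 (2 without FaDu control replicate 1). Among 23 p53 targets BTG2 was the altered gene and the median was 0.11, with 2 altered without FaDu HT replicate 2, FaDu control replicate 1, SAS HT replicate 2 or SAS control replicate 1. CDKN1A (p21) had -0.39 ± 0.10 (adjusted p = 0.0309). With irradiation OVOL1 was altered again, while 0 hypoxia targets and 0 p53 targets were altered. BTG2 had an interaction of 0.94 there (adjusted p = 0.035), inside the 2-fold threshold.

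In 6 lists edgeR and DESeq2 altered 0 genes each. These were 22 genes of the unfolded protein response (median 0.08, 4 with an unadjusted p under 0.05), 31 proteasome subunits (0.02, 1 gene) and 14 Notch genes (-0.09, 5 genes). The others were 12 regulators of mesenchymal transition (0.19, 3 genes), 13 transcripts of the mitochondrial genome (-0.27, 0 genes) and the heat shock factors (-0.16, 0 genes). In the unfolded protein response the values ran from -0.61 for EIF2AK3 (PERK) to 0.58 for DNAJB9. ERN1 (IRE1α), a sensor of that pathway, had -0.46 ± 0.17 (adjusted p = 0.143). The lowest proteasome value was that of PSMD12, -0.46 ± 0.08 (adjusted p = 0.00381), which passed the p threshold at a small size.

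**Figure D4:**
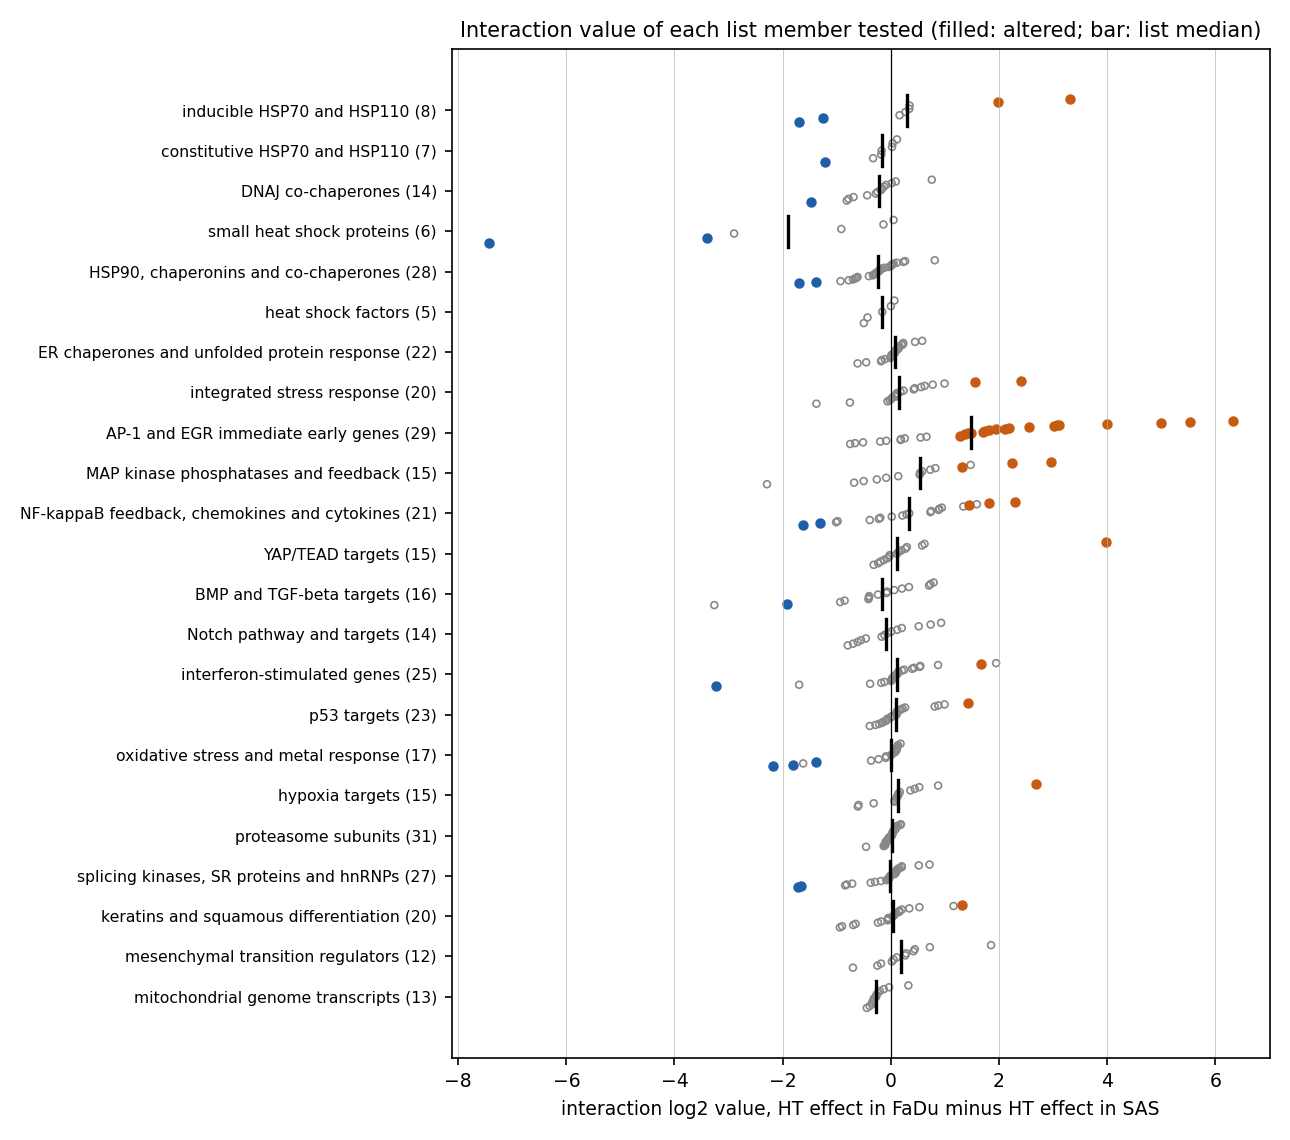
Interaction (x axis, log2) of each tested member of 23 gene lists (number tested in brackets), with altered genes filled and a bar at each list median. The AP-1 and EGR immediate early genes, with 18 of 29 altered, lie mostly right of 0, and small heat shock proteins mostly left, while proteasome subunits stay close to 0; the value of CRYAB at the far left is a fitted value with no count in SAS controls.

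By gene type, 334 of the 471 altered genes (70.9%) were protein coding, against 80.4% of the genes tested. Antisense transcripts made up 48 (10.2%, against 6.14% of tested genes) and lincRNAs 25 (5.31%, against 4.71%). SNORA31, a small nucleolar RNA that guides pseudouridylation, rose in both lines, by 5.36 ± 0.39 in FaDu and 1.88 ± 0.42 in SAS, with an interaction of 3.47 ± 0.66 (adjusted p = 0.00512). Antisense values are uncertain because the use of strand in counting is not stated. AP4B1-AS1 had -4.03 ± 0.82 (adjusted p = 0.00825) from 4 counts in all SAS controls together. Its irradiated value was -0.85 ± 0.76 (adjusted p = 0.622).

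Some altered genes were neighbours. Of the 334 protein-coding ones, 23 (6.89%) had an altered gene as the next tested protein-coding gene on either side, against 4.74% of all tested protein-coding genes. They formed 12 pairs, 10 of which had interactions of one sign. With all gene types, it was 46 of 466 (9.87%), in 23 pairs, against 5.32% of the tested genes. The pairs included DLX1 and DLX2, a homeobox pair with 1.31 and 2.94, and HSPH1 with USPL1, at -1.25 and -1.44. The pairs named were picked with their values in view.

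The lines also differed in order. Of the 215 genes with a more positive response in FaDu, 162 were lower in FaDu before heat, with a median log2 gap of FaDu to SAS of -0.98, and after heat the median gap was 1.05. Of the 256 with a more positive response in SAS, 181 were higher in FaDu before heat, and the median gap went from 0.81 to -1.10. Since the controls enter the interaction itself, this gap was measured again in the irradiated libraries, which had no part in the choice of genes. There, 152 of 213 tested genes of the first kind were lower in FaDu in RT spheroids, and the median gap went from -0.74 to 0.83 with HT. Of 252 genes of the second kind 170 were higher in FaDu, and the gap went from 0.72 to -0.92. The higher line changed with HT in 190 of these 465 genes (40.9%), against 11.8% of all genes tested. The 465 genes were chosen for a large interaction, which favours such a change, so this contrast is description and no test. Over all genes, 48.5% were lower in FaDu in RT spheroids.

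The irradiated libraries repeat the measure in samples that share no library with the others. Same-numbered replicates may still come from the same experiments. FaDu replicate 1 stood apart here too, at chi-square distances of 16.2 and 16.1 against 3.74 in RT and 16.9 and 20.4 against 3.74 in HT+RT. With irradiation, the interaction compares HT+RT with RT in each line, at a dose that differs between lines, and it altered 583 of 17376 genes (3.36%), 232 with a more positive response in FaDu and 351 in SAS. Of the 471 genes, 465 were tested, 458 (98.5%) had the same sign and 309 were altered in the same direction. These are 66.5% of the 465 and 53% of the 583, and none was altered in the other direction. Among all 16919 genes tested in both sets 70% had the same sign, and the correlation across genes was 0.538; genes are not independent replicates. The median size of the interaction over the 465 genes was 1.7 without and 1.47 with irradiation, as a choice of genes on the first value would favour, and 315 were smaller with irradiation.

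EGR4 held its place, with 3.41, 3.91 and 3.50 CPM in FaDu RT, 85.5, 106 and 122 in FaDu HT+RT, 6.61, 6.50 and 4.45 in SAS RT and 3.32, 3.93 and 1.73 in SAS HT+RT. The interaction with irradiation was 5.84 ± 0.32 (adjusted p = 9.47e-08) for EGR4, 4.60 ± 0.25 (adjusted p = 9.47e-08) for EGR3 and 2.97 ± 0.19 (adjusted p = 3.54e-07) for CCN1. On the other side, it was -3.80 ± 0.25 (adjusted p = 3.82e-07) for CLU, -3.70 ± 0.24 (adjusted p = 3.54e-07) for COL1A1 and -1.58 ± 0.11 (adjusted p = 1.01e-06) for SERPINH1. HSPA6 had 2.27 ± 0.33 (adjusted p = 0.000577) and HSPB8 -2.52 ± 0.52 (adjusted p = 0.00748). Of the 10 altered heat shock genes 8 were altered again, and HSPH1 and BAG3, at -0.96 ± 0.20 (adjusted p = 0.00721) and -0.78 ± 0.22 (adjusted p = 0.0445), stayed inside the 2-fold threshold. CRYAB again had no count in SAS without heat and 3.46, 6.15 and 6.97 CPM with it.

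The count of altered immediate early genes with irradiation depended on single libraries. Of the 29 genes 14 were altered, all with a more positive response in FaDu and with a list median of 1.12, and 13 of them were among the 18 above. FaDu RT replicate 1 had high levels of several without heat: FOS stood at 184, 28.98 and 33.0 CPM and EGR1 at 759.5, 196 and 231 in the FaDu RT libraries. JUN stood at 284, 84.4 and 92.4 and DUSP1 at 97.0, 25.1 and 31.6. The FOS interaction was 1.68 ± 0.70 (adjusted p = 0.192), and without that library it was 3.12 ± 0.23 (adjusted p = 8.03e-07). For JUN the values were 1.12 ± 0.46 (adjusted p = 0.187) and, without it, 1.95 ± 0.17 (adjusted p = 2.83e-06), and for DUSP1 1.02 ± 0.46 (adjusted p = 0.239) and 1.91 ± 0.14 (adjusted p = 4.32e-07). Without FaDu RT replicate 1, 18 of the 29 were altered, all with a more positive response in FaDu. The count was 9 without FaDu HT+RT replicate 2, SAS HT+RT replicate 1 or SAS RT replicate 2, and 8 without FaDu HT+RT replicate 3. It lay between 10 and 15 without any other single library. Without SAS RT replicate 2, 1 of the 9 responded more positively in SAS, as did 2 of the 15 without FaDu HT+RT replicate 1.

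A test of the difference between the interactions with and without irradiation, over all 24 libraries, altered 0 of 18188 genes (0%) in edgeR, where 596 had an unadjusted p under 0.05, and 0 in DESeq2, where 550 did. A difference that does not pass is not shown to be absent. Without the filter for low counts 8 genes passed.

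**Figure D5:**
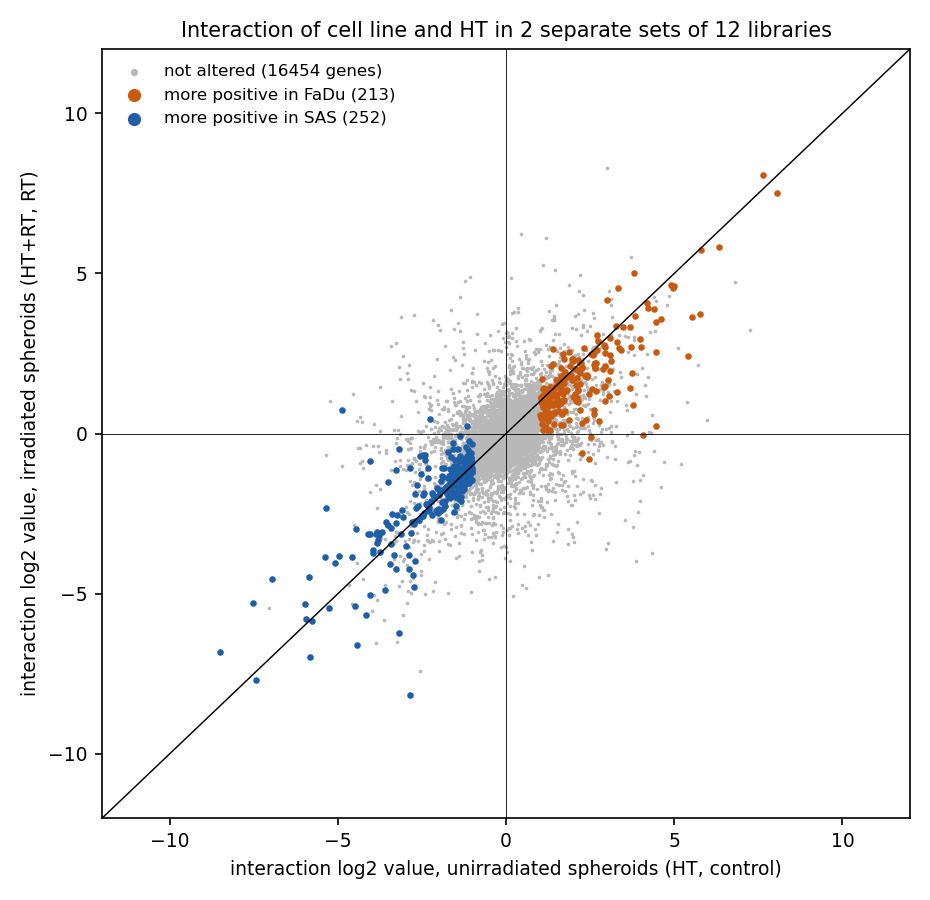
Interaction (log2) without irradiation (x axis) and with irradiation (y axis) for the 16919 genes tested in both sets of 12 libraries, with the line of equality; orange and blue mark genes altered without irradiation. Of the 465 coloured genes 458 lie in the quadrants of equal sign and 315 are smaller in size on the y axis.

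Markers were examined for the identity of the cells. All 7 squamous epithelial markers (EPCAM, CDH1, TP63, KRT5, KRT14, KRT17, KRT18) were tested and 0 were altered; KRT17 was the most abundant, and their summed level ran from 6443 to 12385 CPM. Of 5 fibroblast markers, COL1A1 alone was tested and altered, and the summed level of the list ran from 1.66 CPM in a SAS control to 65.2 in a FaDu HT library. COL3A1, DCN, LUM and PDGFRB were at or near 0, at most 0.54 CPM in any library. The authors describe both spheroid models as mono-cultures. In bulk RNA, fewer cells of a type and less RNA per cell cannot be told apart. Of 5 immune markers CD14 and CD68 were tested, summed levels of the list lay between 6.52 and 11.02 CPM, and PTPRC, CD3E and MS4A1 were at or near 0. Of 4 endothelial markers 3 were tested, CDH5 was the most abundant, and the sums lay between 6.54 and 22.2 CPM. In these 2 lists and the epithelial one edgeR altered 0 genes, 0 had an unadjusted p under 0.05 and DESeq2 altered 0.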

How the data were processed

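RNA sequencing measured transcripts in 24 spheroid cultures of the established lines FaDu and SAS. The authors prepared total RNA libraries with a directional kit and sequenced them on a NovaSeq instrument. The deposited files hold raw counts per gene for 57500 Ensembl genes. The labels name the genome build mm9, while the identifiers are human; aligner and use of strand in counting are not stated. The authors' normalized tables were not used. Totals were 16794578 to 21862472 counts in the 12 unirradiated libraries and 15203484 to 29452514 in the 12 irradiated ones. Floors and counting intervals cover counting error only.

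Counts were fitted with edgeR 4.0.16 in R 4.3.3 (TMM scaling, filterByExpr with a minimum count of 10, quasi-likelihood F test, Benjamini-Hochberg over all genes tested), with 1 mean per group and no block. Altered genes passed 0.05 for the adjusted p and exceeded 1 in absolute log2 value. The 5 comparisons were the HT interaction, HT in FaDu, HT in SAS, the interaction in irradiated spheroids and the difference between both interactions. Standard errors are the log2 value over the root of F. DESeq2 1.42.0, other scalings, filters and thresholds, replicate blocks and each library left out were tried as alternatives. The pipeline was tested on simulated data. Summaries and plots used Python 3.11.15, pandas 2.3.3, numpy 2.4.6, scipy 1.17.1 and matplotlib 3.10.9. Gene types came from GENCODE v29 and promoters from RefSeq (GRCh38.p14). A group with no count took a floor of 3 counts over the group.

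The members and the 23 gene lists and 4 marker lists were chosen with earlier results of these data known. Named genes came from altered genes whose mean log2 CPM reached 1 and whose counts reached 30 in a group of each line: the 12 protein-coding genes with the highest and 12 with the lowest interaction, the 3 highest and 3 lowest of other types, and up to 10 with opposite HT effects. Besides, every altered list member, the highest and lowest member of each list, and genes the study names for HT could be named. Not all of them are printed. Genes outside this rule are said to be chosen after their values were seen.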

Additional observations from a re-analysis of the deposited data

Results flagged for a closer look

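A difference between the lines under the same treatment drew attention to 3 results. HT changed 471 genes by a different factor in FaDu than in SAS, by the edgeR test of the difference itself, adjusted over 17219 genes. Among them, 43 had HT effects of opposite sign in the lines, each with an adjusted p under 0.05 in its own line, 16 up in FaDu and 27 up in SAS. Both effects passed the 2-fold threshold in 3 of the 43. The genes were picked on the difference between the effects, which favours opposite signs. In the irradiated libraries, which share none with the others, 309 of the genes differed between the lines again in the same direction. No explanation of these differences was tested.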

How the results depend on the processing

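The 471 genes with an altered HT interaction numbered 486 with RLE size factors, 479 with upper-quartile scaling, 577 with DESeq2, 703 with no filter for low counts, 321 with at least 10 counts in every library and 590 with all 8 groups in 1 fit. Leaving out 1 library gave 368 (without FaDu control replicate 3) to 523 (without FaDu HT replicate 1). Alternatives added after seeing the data were FaDu replicate 1 left out of both groups (526) and only genes with more than 3 counts in each group (432). None of the scalings moved the median of all genes by over 0.05 on the log2 scale.

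Deviations of same-numbered FaDu control and HT libraries correlated across genes at 0.18 to 0.38, and 6 of 6 libraries correlated best with their own number. In SAS the range was 0.00 to 0.10 (4 of 6) and across lines -0.06 to 0.09, so replicate numbers pair FaDu but not all libraries of the interaction, which was fitted without a block. In irradiated libraries the ranges were 0.13 to 0.34 in FaDu (5 of 6), 0.09 to 0.17 in SAS (6 of 6) and -0.03 to 0.07 across lines, which hints at pairing within SAS too. With replicate as a block shared by both lines 524 genes were altered, and with a block within each line 678; HT altered 978 and 1070 genes in FaDu, against 965 without a block (HT effect in FaDu). The HT interaction difference with irradiation stayed at 0 genes in edgeR with either block, where 740 and 1046 genes had an unadjusted p under 0.05; DESeq2, run without a block, altered 0. The blocks ended no call of a named altered gene.

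Counts moved by over 1.5 times chiefly with the thresholds. With glmTreat, which tests against a log2 value of 1, the counts were 86 for the HT interaction (41 for the HT interaction, larger in FaDu, and 45 for the HT interaction, larger in SAS), 338 for the HT effect in FaDu, 364 for the HT effect in SAS, 129 for the HT interaction in irradiated spheroids and 56 for genes altered alike in unirradiated and irradiated spheroids. With adjusted p alone they were 956 (396 and 560), 3421, 3437, 1318 and 665. With at least 10 counts in every library, 143 genes had a more positive response in FaDu, HT altered 374 in FaDu and 413 in SAS, and 336 were altered with irradiation. Fewer genes are tested there. The difference with irradiation was 0 genes in edgeR (596 at an unadjusted p under 0.05, DESeq2 0) and 8 with no filter for low counts. The cause was not tested.

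Without FaDu HT replicate 3, 164 of 460 altered genes (35.7%) had a more positive response in FaDu, against 45.6% with all libraries.

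Of 77 named altered genes, 66 were altered under every alternative but glmTreat in which they were tested, and 37 under glmTreat too. Not every gene could be tested under each alternative. CRYAB and PNLDC1, with no count in the SAS controls, drop out with at least 10 counts in every library. Besides the list members named beside their counts, glmTreat ended the calls of COL2A1, PGF, PNLDC1, CCDC39, PAG1, FUT4, DIO2, KLF5, SNORA31 and AP4B1-AS1. Of 1750 comparisons, 87 ended a call and 0 changed sign. Changes of sign occurred in 5 named genes that were not altered. The HT interaction of HSPA13 was -0.02 without FaDu HT replicate 2, -0.005 without SAS HT replicate 1 and up to 0.243 without another library. IFT25 had -0.03 without FaDu HT replicate 1, -0.012 without FaDu control replicate 2, -0.029 without SAS HT replicate 1, -0.048 without SAS control replicate 2 and up to 0.111 without another library. HSF1 had -0.088 without FaDu HT replicate 1, -0.003 without FaDu replicate 1 in both groups and up to 0.106 without another library. The HT interaction of CXCL10 was -0.017 without SAS control replicate 3 and up to 2.41 without another library. That of SLC7A11 was -0.016 without SAS HT replicate 1 and up to 0.291 without another library. Depth limits genes near 0 counts in a group, where 39 altered genes had at most 3.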
